A study of Mus musculus with 8 samples.

Results

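S100a8, S100a9, Mmp8, Stfa2l1, Retnlg and Ly6g are genes of mouse granulocytes, and all 6 were found among the 11667 genes measured in 8 tumours. They were picked by name after their levels in anti-VEGF-treated and control tumours were known, so the differences between the treatments are given below as a description, without a test. The tumours grew from HM-1 cells, a mouse ovarian cancer line that had been placed under the skin of the flank of B6C3F1 mice. The control group was 4 tumours of mice given rat IgG, an isotype control, and the treated group was 4 tumours of mice given antibody against VEGF, the main growth factor of blood vessels. Both were given into the peritoneal cavity, repeatedly, until the mice were killed. The sample labels put the start of treatment of both groups at 3 days after cell injection, the methods of the study give another day, and tumours were taken once their long diameter was 1.5 cm. The labels give no age or sex of the mice. Total RNA of each whole tumour went to 1 Affymetrix mouse transcriptome array, and the deposited values are log2 levels from robust multi-array averaging. In RNA of whole tumours, fewer cells of a type and less RNA per cell cannot be told apart.

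Neutrophils make their stores in order. While they mature in the bone marrow they fill primary granules with serine proteases, then secondary granules with proteins such as collagenase and cathelicidin, and the calcium-binding pair S100A8 and S100A9 accumulates freely in the cytosol. That pair, joined as calprotectin, binds zinc and manganese and, once released, acts on Toll-like receptor 4 and other receptors of myeloid cells. In tumours of mice, granulocytes that carry Ly6G and CD11b and restrain T cells are named granulocytic myeloid-derived suppressor cells, and RNA for calprotectin is among their most abundant. Of the 6 genes, Mmp8 alone encodes a classical granule enzyme. S100a8, S100a9 and Stfa2l1 encode cytosolic proteins, Retnlg a secreted protein and Ly6g a surface antigen.

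The 300 bases around the start site of 3 of these genes are shown because the genes are the calprotectin pair and the granule enzyme, whose deposited levels moved together across the tumours. The windows come from RefSeq on GRCm38.p6 and run from 250 bases before to 50 bases after the start, 5′ to 3′ on the strand of the gene. Capitals mark every match, on either strand, to TTNNGNAA, the letters bound by C/EBP factors, and to GAGGAA, a core bound by PU.1, both of which are regulators of granulocyte genes.
S100a8 promoter, chr3:90668821-90669120 (+ strand): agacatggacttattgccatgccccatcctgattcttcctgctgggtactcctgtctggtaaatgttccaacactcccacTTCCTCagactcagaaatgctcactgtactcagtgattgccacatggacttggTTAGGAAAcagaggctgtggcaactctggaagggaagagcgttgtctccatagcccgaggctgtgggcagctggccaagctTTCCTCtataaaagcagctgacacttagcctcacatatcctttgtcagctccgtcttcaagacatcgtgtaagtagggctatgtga
S100a9 promoter, chr3:90695672-90695971 (- strand): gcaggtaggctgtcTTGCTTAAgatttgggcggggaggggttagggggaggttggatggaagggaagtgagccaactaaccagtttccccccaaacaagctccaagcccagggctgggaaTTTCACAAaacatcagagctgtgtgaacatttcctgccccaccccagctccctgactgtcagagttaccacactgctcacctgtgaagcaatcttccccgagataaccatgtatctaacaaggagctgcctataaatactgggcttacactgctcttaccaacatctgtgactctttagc
Mmp8 promoter, chr9:7558179-7558478 (+ strand): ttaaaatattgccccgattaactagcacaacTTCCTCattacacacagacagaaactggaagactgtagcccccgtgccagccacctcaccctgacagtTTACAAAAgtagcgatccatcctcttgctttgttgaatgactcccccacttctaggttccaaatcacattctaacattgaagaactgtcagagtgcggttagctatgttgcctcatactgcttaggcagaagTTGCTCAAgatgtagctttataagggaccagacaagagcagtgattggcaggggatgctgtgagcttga
A match to the C/EBP letters was present in the windows of 6 of 6 genes, and 40.7% of 32851 windows of this length in the table held one. The PU.1 core was present in 4 of 6, against 28.3% of all windows, with none in S100a9 or Retnlg. TATAAA was also found in 4 of 6, against 13.6% of all windows. The core ACGTG of hypoxia response elements, TGANTCA of AP-1, TTCNNNGAA of STAT factors and the NF-kB motif were found in 0 of 6, and 19.6%, 7.81%, 8.3% and 8.46% of all windows held them. Both strands were searched for each, and Ly6g was counted by the first of its windows. A match describes letters only.

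The 8 arrays were not alike in their spread. The SD over all genes was 1.12 to 1.66 on the control arrays and 1.99 to 2.08 on the anti-VEGF arrays, and low values were lower and high values higher in anti-VEGF tumours. With genes divided into 10 level bins by their mean, the median difference was -1.34 in the lowest bin and 0.89 in the highest, on the log2 scale. By limma, 2232 genes (19.1%) were called higher and 5437 (46.6%) lower at an adjusted p below 0.05, beside 872 (7.47%) and 519 (4.45%) after quantile normalisation of the deposited arrays again, and the median difference over all genes was -0.44. The array of control tumour 3 correlated least with the mean of the others, at r = 0.84, and the other 7 at 0.93 to 0.99. Genes of the exocrine pancreas were measured in tumours labelled as subcutaneous. The mean log2 expression of 22 acinar genes was 9.40 to 11.06 in controls and 9.68, 4.28, 4.71 and 6.82 in anti-VEGF tumours, and 22 of 22 were called lower, 16 of them after quantile normalisation as well. Their part in any result below was not tested. The labels do not say that tumours came from separate animals, so p-values measure the spread between these samples.

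Of the 6 genes, 5 were 2.62 to 3.32-fold higher in anti-VEGF tumours, and Ly6g was 1.23-fold higher. Their median difference was 1.42 on the log2 scale against -0.44 over all genes. For 4 of the 6 the lowest anti-VEGF tumour was above the highest control, which held for 19.8% of all genes in that direction. The genes were chosen from this contrast, so nothing is read from that count.

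S100a8, the smaller subunit of calprotectin, had log2 expression of 3.91, 5.19, 3.91 and 6.40 in control tumours 1 to 4 and of 6.56, 5.81, 6.76 and 7.22 in anti-VEGF tumours 1 to 4. The controls spread over a wide range, and control tumour 4 stood above anti-VEGF tumour 2, so the groups overlapped, although 3 of 4 anti-VEGF tumours were above every control. The means were 4.85 ± 1.20 and 6.59 ± 0.59 (SD, n = 4 each), a difference of 1.73 (SE 0.67), or 3.32-fold. Without control tumour 4 the difference was 2.25.

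S100a9, the partner subunit, lies beside S100a8 on the chromosome with no other tested gene between them. Its log2 expression was 5.83, 5.33, 4.72 and 6.08 in controls and 7.32, 6.18, 6.69 and 7.54 in anti-VEGF tumours. Every anti-VEGF tumour was above every control, although anti-VEGF tumour 2 exceeded control tumour 4 only narrowly. The means were 5.49 ± 0.60 and 6.93 ± 0.62 (SD, n = 4 each), a difference of 1.44 (SE 0.43), or 2.72-fold. Control tumour 4 was the highest control for both subunits, control tumour 3 was the lowest or level with the lowest for both, and anti-VEGF tumours 4 and 2 were the highest and the lowest of their group for both.

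Mmp8 encodes neutrophil collagenase, which is stored in secondary granules and cleaves fibrillar collagen. Its log2 expression was 5.57, 5.18, 5.15 and 5.75 in controls and 6.46, 7.04, 7.21 and 7.52 in anti-VEGF tumours. The controls lay close together and far below all treated tumours. The means were 5.41 ± 0.29 and 7.06 ± 0.44 (SD, n = 4 each), and the difference of 1.64 had an SE of 0.27, the smallest beside its size among the 6 genes.

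Stfa2l1 encodes a stefin A-like inhibitor of cysteine proteases, from a family that has expanded in the mouse. Its log2 expression was 3.97, 4.57, 4.63 and 5.10 in controls and 5.80, 5.46, 6.22 and 6.35 in anti-VEGF tumours. The groups did not overlap, and the order of the treated tumours was that of S100a8. The difference was 1.39 (SE 0.31), or 2.62-fold. Stefin A genes are near-identical copies of each other, so that their probes may not tell them apart, and the value of any one of them is uncertain to that degree.

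Retnlg encodes resistin-like gamma, a small secreted protein made by granulocytes of mouse bone marrow. Its log2 expression was 5.47, 5.80, 4.56 and 5.41 in controls and 6.55, 6.54, 6.43 and 7.33 in anti-VEGF tumours. In the treated group 3 tumours were almost equal and tumour 4 was well above them, and no control reached any of them. The difference was 1.40 (SE 0.33), or 2.64-fold.

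Ly6g encodes the GPI-anchored antigen by which mouse neutrophils are told from monocytes, and which the antibody Gr-1 binds along with Ly6C. Its log2 expression was 4.02, 3.90, 4.27 and 3.61 in controls and 3.96, 4.12, 4.30 and 4.59 in anti-VEGF tumours. The 8 values lay within a narrow range and the groups overlapped, since anti-VEGF tumour 1 was below 2 of the controls. The difference was 0.29 (SE 0.19). It was 0.18 without anti-VEGF tumour 4. It was 1.02 once the arrays were given a common distribution by quantile normalisation, and 1.02 after cyclic loess as well.

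**Figure D1:**
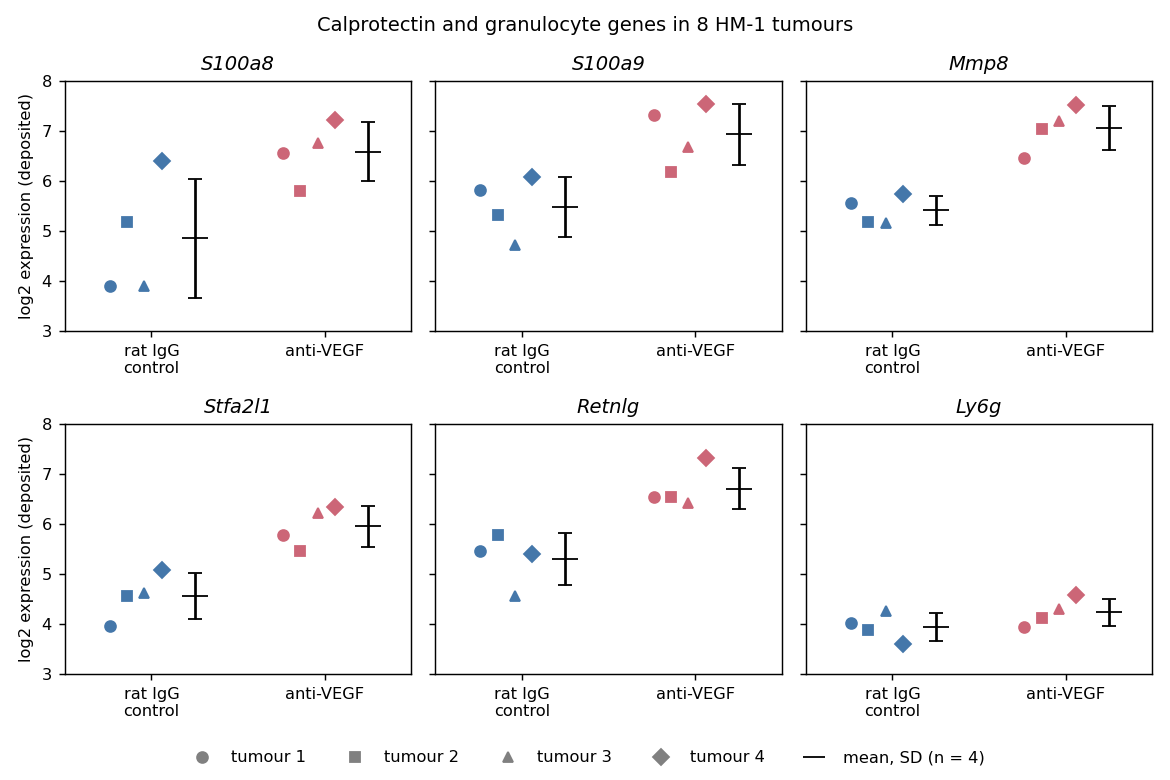
Log2 expression of the 6 genes in each tumour, with 1 panel a gene, 4 control tumours (blue) and 4 anti-VEGF tumours (red), symbols for tumour 1 to 4, and black bars for mean and SD. S100a9, Mmp8, Stfa2l1 and Retnlg do not overlap between treatments, S100a8 overlaps through control tumour 4 at 6.40, and Ly6g stays between 3.61 and 4.59.

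Since the arrays differed in spread, each gene was also placed among all genes of its own array, a position that no increasing rescaling of an array can alter. On this measure 4 of the 6 genes, Mmp8, Stfa2l1, Retnlg and Ly6g, were higher in every anti-VEGF tumour than in every control, against 13.6% of all genes. As the genes were chosen from the contrast between treatments, nothing is read from that count. Ly6g stood at the 18.2 to 23.2 percentile in controls and at the 34.4 to 50.8 percentile in anti-VEGF tumours, a gap the log2 values did not show. Mmp8 ranged from 56.8 to 70.0 in controls and from 78.0 to 89.2 in treated tumours. Stfa2l1 ranged from 17.0 to 55.9 in controls and from 65.1 to 76.3 in treated tumours. These controls varied widely without reaching the treated tumours, and so did those of Retnlg, at 32.7 to 71.9 beside 77.4 to 87.4. S100a9 now overlapped by a small margin, with 39.6 to 76.0 in controls and 74.6 to 89.3 in anti-VEGF tumours. S100a8 had the widest controls, from 12.1 to 81.0, beside 69.8 to 86.2 in treated tumours. It stood low in control tumours 1 and 3, and in control tumour 4 it stood as high as in treated tumours. Olfactory and vomeronasal receptor genes, which serve the nose, give a scale for such low positions. Their 95th percentile over 1268 genes stood at 72.8 in control tumour 3, above all 6 genes there, and at 47.8 in control tumour 1, above S100a8, Stfa2l1 and Ly6g. It stood at 45.8 in control tumour 2, above Stfa2l1 and Ly6g, and at 42.3 in control tumour 4, above Ly6g. In anti-VEGF tumours it stood at 35.4 to 38.4, and only Ly6g in tumour 1 was below it. Ly6g thus lay below this mark in all 4 controls, which limits what its gap in percentile and its fold difference measure.

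**Figure D2:**
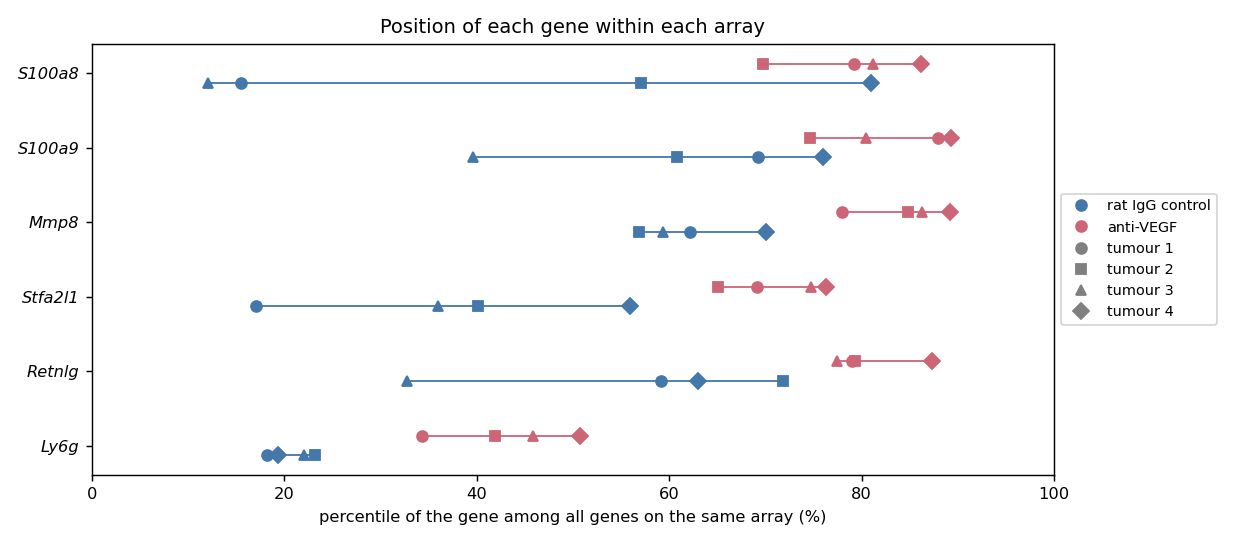
Percentile of each of the 6 genes among the 11667 genes of the same array, with 1 symbol a tumour, blue for control and red for anti-VEGF, and lines from the lowest to the highest tumour of a group. The ranges are apart for Mmp8, Stfa2l1, Retnlg and Ly6g and overlap for S100a8 and S100a9.

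The median difference in a gene's own level bin was -0.05 for S100a8 and Stfa2l1, 0.37 for S100a9, Mmp8 and Retnlg, and -0.70 for Ly6g. The 95th percentiles of these bins were 1.07, 1.38 and -0.07, and each of the 6 genes was above its own. The genes were chosen by this same difference, so their place above the mark is a description and no support. Retnlg was only just above its 95th percentile, with 1.40 beside 1.38, while S100a8 exceeded its own by more. After quantile normalisation the differences were 1.91 for S100a8, 1.28 for S100a9, 1.40 for Mmp8, 1.63 for Stfa2l1 and 1.33 for Retnlg. After cyclic loess they were 1.57, 0.99, 1.18, 1.50 and 1.06 in the same order. S100a8 was first of the 5 on these 3 scales, but its lead over Mmp8 in the deposited values was small beside its SE of 0.67, and without control tumour 1 it was at 1.42 and Mmp8 at 1.70. Stfa2l1 was below Mmp8 in the deposited values and above it after both rescalings.

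**Figure D3:**
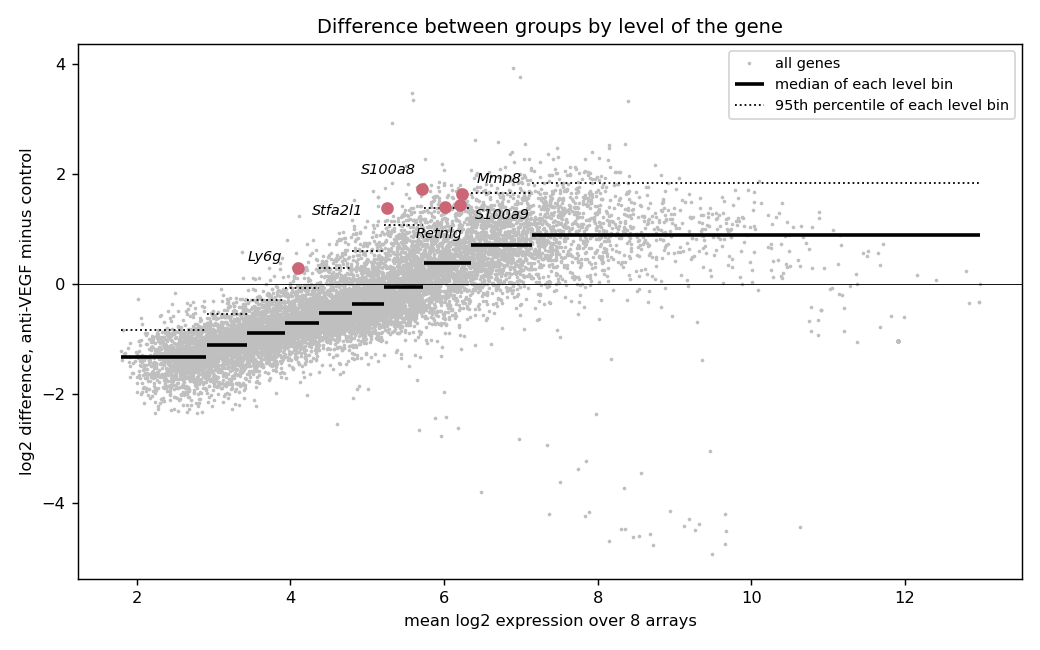
Difference between anti-VEGF and control tumours (log2) against mean log2 expression over the 8 arrays, for all genes (grey) and the 6 genes (red), with the median (solid) and the 95th percentile (dotted) of each of 10 level bins. The 6 genes lie above the dotted line of their own bin, Ly6g at a difference of 0.29 beside a median of -0.70 in its bin.

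In the deposited values the 5 genes other than Ly6g moved together over the 8 tumours. Pearson correlations of their log2 values lay between 0.78 and 0.91 in 10 of 10 pairs, with a median of 0.84, which includes the gap between treatments that the genes were chosen for. After the mean of each treatment was taken away, the 10 correlations were all above 0, from 0.15 to 0.81 with a median of 0.43 (n = 8 tumours, which share the scale of each array). The closest pair was then S100a8 and Stfa2l1 at 0.81, followed by S100a9 and Retnlg and by the calprotectin pair itself, both at 0.64. Stfa2l1 and Retnlg were the loosest pair, at 0.15. The 5 such correlations of Ly6g lay from -0.38 with S100a8 to 0.28 with Mmp8. After quantile normalisation they lay from -0.19 to 0.53 with a median of 0.22, and 4 of 5 were above 0. The other 10 pairs then lay from 0.23 to 0.84 with a median of 0.46. Over the 8 arrays as normalised in that way, the 5 correlations of Ly6g were 0.66 to 0.93 with a median of 0.79. Those of the other 10 pairs were 0.73 to 0.90 with a median of 0.81, and both include the gap between treatments. On that measure Ly6g was close to the others after quantile normalisation, while over the deviations its correlations stayed lower.

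Single tumours were high or low for several of the genes at once. Anti-VEGF tumour 4 was the highest of its group for 6 of 6 genes, and anti-VEGF tumour 2 was the lowest for 3 of them, S100a8, S100a9 and Stfa2l1. Control tumour 4 was the highest control for 4 genes, S100a8, S100a9, Mmp8 and Stfa2l1, and the lowest for Ly6g. Control tumour 3 was the lowest control for 3 genes, S100a9, Mmp8 and Retnlg, and its array had the narrowest spread of all.

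**Figure D4:**
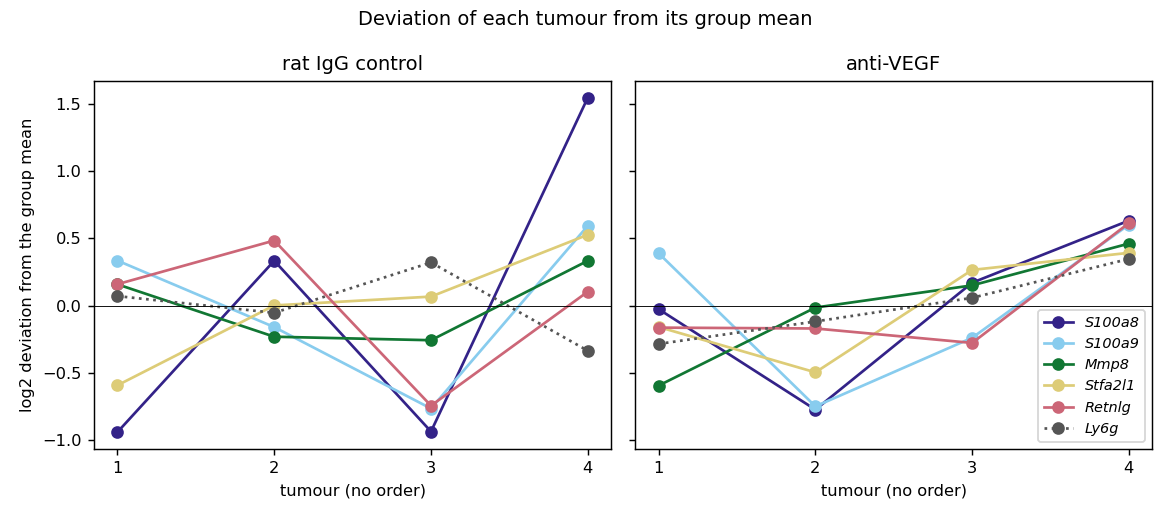
Deviation of each tumour from the mean of its treatment (log2) for the 6 genes, controls on the left and anti-VEGF tumours on the right. Lines join the values of a gene and imply no order of tumours. Anti-VEGF tumour 4 is above 0 for all 6 genes, and in controls Ly6g (dotted) is lowest in tumour 4, where S100a8 is highest.

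Of all genes outside the 6, those with a profile most like their standardised mean were Ereg, the growth factor epiregulin, with r = 0.98 over the 8 arrays, and Ube2a, a ubiquitin-conjugating enzyme, with 0.97. After quantile normalisation these were 0.91 and 0.87. As many as 463 genes had r above 0.9. Over the deviations from the treatment means, the highest was Vmn1r201, a vomeronasal receptor gene, at 0.91, the second Ereg at 0.88 and the third Asprv1, a retroviral-like protease of skin that neutrophils also express, at 0.86. After quantile normalisation Vmn1r201 was at 0.97 and Asprv1 at 0.86, but Ereg at 0.57 and Ube2a at 0.22. Asprv1 was the only gene of the neutrophil lists in either set of 10.

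Genes of neutrophils other than the 6 were listed with earlier results of these data known, so their counts are a description and no independent support. Of 66 such genes that were tested, 20 (30.3%) were called higher and 13 (19.7%) lower by limma with Benjamini-Hochberg adjustment over all genes, beside 19.1% and 46.6% of all genes, and their median difference was 0.15 beside -0.44. Higher calls were made for surface receptors and for cytoplasmic or secreted proteins, and granule proteins had lower calls only. Lower calls numbered 8 without anti-VEGF tumour 2. The level bin that holds the median of these 66 genes had 240 of 1167 genes called higher and 185 lower. Its median difference was -0.05. After quantile normalisation 6 of the 66 were higher and 2 lower, beside 7.47% and 4.45% of all genes, and 3 of the 6 were among the 20.

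Primary granule genes, the first to be switched on in the bone marrow, gave 0 higher and 5 lower calls of 8 tested, the latter 62.5% beside 46.6% of all genes, with a median difference of -0.65. Elane, neutrophil elastase, had log2 expression of 4.76, 4.61, 5.30 and 4.45 in controls and 3.97, 3.74, 4.12 and 3.82 in anti-VEGF tumours, so that every treated tumour was below every control. The difference was -0.87 (adjusted p = 0.00532). Ms4a3, a membrane protein of granulocyte progenitors, differed by -1.04, Bpi, which binds bacterial lipopolysaccharide, by -0.76, Ctsg, cathepsin G, by -0.71 and Prss57, a serine protease, by -0.58. At an unadjusted p below 0.05, limma had 1 higher and 5 lower. None of the 5 passed after quantile normalisation, where Ctsg was at 0.17 and 2 of the 8 tested genes were lower at an unadjusted p below 0.05. In the level bin that holds the median of the list, 629 of all 1167 genes were called lower in the deposited values.

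Secondary and tertiary granule genes, to which Mmp8 belongs, gave 0 higher and 3 lower calls of 11 tested. The lower calls were 27.3% of the list, beside 46.6% of all genes. At an unadjusted p below 0.05, limma had 1 higher and 4 lower. In the level bin that holds the median of the list, 442 of all 1166 genes were called lower in the deposited values. Camp, the antimicrobial cathelicidin, had log2 expression of 6.65, 5.82, 6.07 and 5.47 in controls and 5.03, 4.77, 5.07 and 5.03 in anti-VEGF tumours. It differed by -1.02 (adjusted p = 0.00478) and was lower after quantile normalisation too, at -1.23 (adjusted p = 0.0482). Olfm4, an olfactomedin of a subset of neutrophils, differed by -0.96 and Fcnb, ficolin B, by -0.48, and neither passed after quantile normalisation. Ngp, a granule protein of the cystatin type, went with Mmp8 in direction but did not pass, at 0.78 (adjusted p = 0.0656), and did pass after quantile normalisation at 1.16 (adjusted p = 0.0456). With the replicate block its adjusted p was 0.0168, with eBayes trend and robust 0.0379, and without anti-VEGF tumour 2 the difference was 1.14 and passed. Ltf, lactoferrin, was at -0.15 (adjusted p = 0.561).

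Surface receptors gave 15 higher (55.6%) and 2 lower calls of 27 tested, beside 19.1% of all genes called higher. The level bin that holds the median of this list had 240 of 1167 genes called higher and 185 lower. After quantile normalisation 3 of the 27 receptors were higher and 0 lower, beside 7.47% and 4.45% of all genes. Itgam, the CD11b chain of the integrin by which myeloid cells adhere, had log2 expression of 6.93, 7.46, 6.06 and 7.82 in controls and 8.52, 8.69, 8.84 and 8.94 in anti-VEGF tumours. All treated tumours were above all controls, with a difference of 1.68 (adjusted p = 0.0023), and 0.86 after quantile normalisation (adjusted p = 0.0295). Lilrb4a, an inhibitory receptor, was higher by 2.03, Cd33, a sialic acid-binding receptor, by 1.37 and Fcgr3, a receptor for IgG, by 1.20. None of these 3 passed after quantile normalisation. They and Itgam lie in the highest level bin, where 736 of 1167 genes were called higher in the deposited values. Il1r2, the decoy receptor of interleukin-1, was higher by 1.44, but by 0.88 without control tumour 3, and its call was lost without anti-VEGF tumour 3 or 4 or control tumour 1. Cxcr2, the receptor by which neutrophils follow CXC chemokines, was higher by 0.72 (adjusted p = 0.00452), but by 0.28 after quantile normalisation (adjusted p = 0.429). The 3 receptors that passed on both scales were Itgam, Cd300ld, an activating receptor of myeloid cells, at 0.72, and Clec4d, a lectin receptor for fungi and mycobacteria, at 0.53. In controls Cd300ld stood at the 20.4 to 33.4 percentile and Clec4d at the 30.4 to 43.2 percentile. The 95th percentile of olfactory and vomeronasal receptor genes stood there at 42.3 to 72.8, which limits what these 2 differences measure. Several of the surface receptors are shared with monocytes and macrophages.

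Cytoplasmic and secreted proteins gave 5 higher (25%) and 3 lower (15%) calls of 20 tested, beside 19.1% and 46.6% of all genes. The level bin that holds the median of this list had 463 of 1166 genes called higher and 59 lower in the deposited values. Jaml, an adhesion molecule of migrating leukocytes, was higher by 1.71, Wfdc17, a small protein of activated myeloid cells, by 1.37, Grina by 1.08 and Arg1, the arginase by which myeloid cells use up arginine, by 1.05. Arg2, the mitochondrial arginase, was lower at -0.57 (adjusted p = 0.00989), and none of these 5 passed after quantile normalisation.

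**Figure D5:**
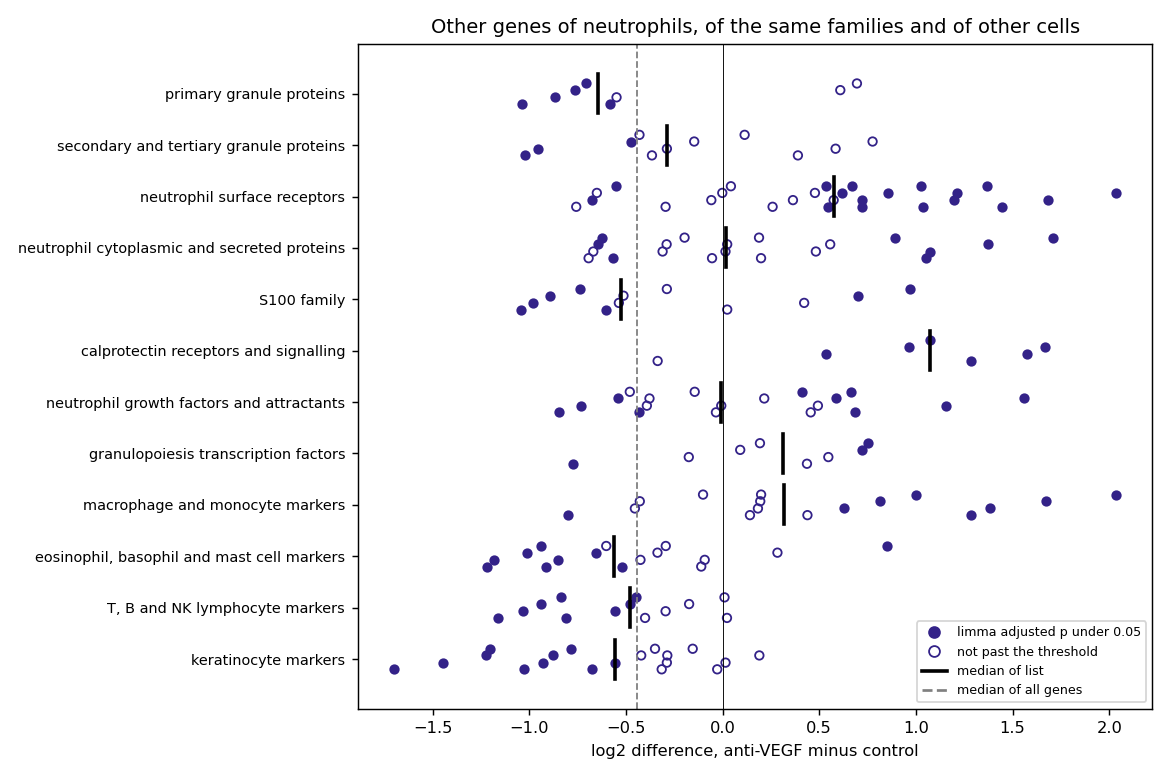
Difference between anti-VEGF and control tumours (log2) for each tested gene of 12 lists, filled where limma's adjusted p was below 0.05, with the median of each list as a black bar and the median of all genes, -0.44, as a dashed line. Receptors of neutrophils and of calprotectin lie mostly to the right, and primary granule proteins, lymphocyte, keratinocyte and eosinophil, basophil and mast cell markers mostly to the left.

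Each of the 6 genes has relatives in a family. Of 12 other S100 genes tested, 2 were called higher (16.7%) and 5 lower (41.7%), beside 19.1% and 46.6% of all genes. The level bin that holds the median of this list had 24 of 1167 genes called higher and 629 lower. After quantile normalisation limma called 0 of the 12, with 2 lower at an unadjusted p below 0.05. S100a1, of heart and other muscle, was higher by 0.97 and S100a16 by 0.70, while S100a5, S100b, S100a2, S100z and S100a7a were lower, with differences of -1.05 to -0.60. S100a1 was at 0.61 without control tumour 3 and S100a5 at -0.58 without control tumour 1. S100a6, calcyclin, was at 10.07 in controls and 10.49 in anti-VEGF tumours, and did not pass (difference 0.42, adjusted p = 0.0681).

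Among stefin A genes, Csta2 was called higher by 0.78 (adjusted p = 0.0058), and by 1.34 after quantile normalisation (adjusted p = 0.0143). Stfa1 at -0.69, Stfa2 at -0.20, Stfa3 at -0.67 and Csta3 at -0.30 did not pass. Without 1 array these moved widely, Stfa1 to -0.43 without control tumour 1, Stfa2 to -0.10 without anti-VEGF tumour 2, and Stfa3 to -0.16 and Csta3 to -0.14 without control tumour 3. After quantile normalisation Stfa2 was higher by 0.65 (adjusted p = 0.027) and Csta3 by 0.67 (adjusted p = 0.0206). The whole list of 23 stefins, cystatins and the cathepsins they act on gave 6 higher (26.1%) and 7 lower (30.4%) calls. These shares stand beside 19.1% and 46.6% of all genes. The level bin that holds the median of this list had 24 of 1167 genes called higher and 629 lower. The higher calls of the list included Ctsc, the protease that activates the serine proteases of granules, at 1.54 and Ctsb, cathepsin B, at 1.30. Ctsb was at 0.85 without control tumour 3. Cst9 at -2.11, Cst12 at -1.35 and Cstl1 at -0.82, cystatin genes, were among the lower calls, and after quantile normalisation the list gave 5 higher and 1 lower, Cstl1 at -0.40.

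The resistin family has 3 other genes. Retn, resistin of mouse fat cells, was lower at -0.99 and Retnlb, of gut goblet cells, at -1.11, neither of which passed after quantile normalisation. Retnla, the neighbour of Retnlg and a marker of alternatively activated macrophages, was at 0.10 (adjusted p = 0.645) in the deposited values. It was higher after quantile normalisation, by 1.05 (adjusted p = 0.0219).

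The Ly6 family gave 2 higher (10%) and 12 lower (60%) calls of 20, beside 19.1% and 46.6% of all genes. The level bin that holds its median had 68 of 1166 genes called higher and 442 lower in the deposited values. After quantile normalisation the family gave 0 higher and 3 lower, with 1 higher and 6 lower there at an unadjusted p below 0.05 by limma. Lypd6, one of the lower genes, was at -0.84 on both scales (adjusted p = 0.00215 and 0.0274). Ly6c2, the antigen of inflammatory monocytes, was higher by 1.39 and Ly6c1 by 0.91, both without a call after quantile normalisation. Gr-1 binds their products as well as that of Ly6g, whose tested neighbours Ly6a2 and Ly6f were both lower, at -0.59. Beside Mmp8 on the chromosome, Mmp10, stromelysin 2, was higher by 1.01 (adjusted p = 0.00459) and Mmp27 lower at -0.43 (adjusted p = 0.0482). The 12 collagenases and stromelysins gave 4 higher (33.3%) and 5 lower (41.7%) calls, beside 19.1% and 46.6% of all genes. The level bin that holds their median had 240 of 1167 genes called higher and 185 lower. After quantile normalisation 2 of the 12 were higher and 0 lower, and 0 were lower there at an unadjusted p below 0.05 by limma as well. Mmp13, the main interstitial collagenase of mice, was higher by 2.18, and by 1.45 after quantile normalisation (adjusted p = 0.0228), while Mmp1b, another collagenase gene, was lower at -1.13 (adjusted p = 0.000942) and at 0.060 after quantile normalisation. Ccdc58, the nearest tested gene on one side of Stfa2l1, was higher by 0.85 (adjusted p = 0.00633). Neighbours of the 6 genes had calls in both directions.

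Receptors and signal proteins of calprotectin gave 6 higher (85.7%) and 0 lower calls of 7 tested, beside 19.1% and 46.6% of all genes. At an unadjusted p below 0.05 by limma 6 were higher and 0 lower too. In the level bin that holds the median of the list, 694 of all 1167 genes were called higher in the deposited values. Emb, embigin, a membrane protein, had log2 expression of 6.19, 6.36, 5.48 and 6.83 in controls and 7.59, 7.92, 7.92 and 8.09 in anti-VEGF tumours. The groups were well apart, with a difference of 1.67 (adjusted p = 0.00128), and 1.06 after quantile normalisation (adjusted p = 0.0214). Ly96, the partner of Toll-like receptor 4, was higher by 1.57, Cd68 by 1.28, Bsg, basigin, by 1.07, Cd14 by 0.97 and the adaptor Myd88 by 0.53, none of which passed after quantile normalisation.

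Factors that draw or sustain neutrophils gave 6 higher (31.6%) and 4 lower (21.1%) calls of 19 tested. These shares stand beside 19.1% and 46.6% of all genes, and after quantile normalisation 2 factors were higher and 1 lower. The level bin that holds the median of this list had 68 of 1166 genes called higher and 442 lower in the deposited values. Kitl, stem cell factor, was higher by 1.56, Lta4h, the enzyme that makes leukotriene B4, by 1.15, Cxcl2 by 0.69, Csf1, the growth factor of macrophages, by 0.66 and Cxcl3 by 0.59, and none of these 5 passed after quantile normalisation. Il17f, a cytokine that raises the making of neutrophil attractants, was lower at -0.73 (adjusted p = 0.00544) and at 0.23 after quantile normalisation. Cxcl2 and Cxcl3 are ligands of Cxcr2. Csf3, the main growth factor of neutrophils, was at -0.48 (adjusted p = 0.06) and Csf2, which encodes GM-CSF, at -0.39 (adjusted p = 0.0909), neither past the threshold. Among 8 transcription factors of granulocytes, Gfi1, which neutrophil maturation requires, was lower at -0.77 and was lower after quantile normalisation too (adjusted p = 0.0377). Cebpg was higher by 0.72 and Fosl2 by 0.75 in the deposited values only, Fosl2 by 0.47 without control tumour 3.

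Markers of other cells were read beside these. Of 16 macrophage and monocyte markers 7 (43.8%) were called higher and 1 lower, beside 19.1% and 46.6% of all genes. After quantile normalisation 1 was higher and 0 lower. In the level bin that holds the median of the list, 694 of all 1167 genes were called higher in the deposited values. Cd163, the haemoglobin scavenger receptor, was at 2.04 and Folr2, a folate receptor, at 1.67. The mean log2 expression of the 16 markers was 6.02 to 6.54 in controls and 6.62 to 7.06 in anti-VEGF tumours. Of 16 eosinophil, basophil and mast cell markers 1, the basophil protease Mcpt8, was higher by 0.85 and 8 (50%) were lower, and after quantile normalisation 1 was higher and 0 lower. Of 13 lymphocyte markers 0 were higher and 8 (61.5%) lower, Gzma, granzyme A, at -1.16, and of 19 keratinocyte markers, which with S100a8 and S100a9 belong to inflamed skin, 0 were higher and 10 (52.6%) lower. These shares of lower calls stand beside 46.6% of all genes, and the medians of the 3 lists, -0.56, -0.48 and -0.56 in the same order, beside -0.44. The level bin of the first list's median had 827 of 1167 genes called lower, at a median difference of -0.70. That of the lymphocyte and keratinocyte lists had 629 of 1167 called lower, at -0.53. At an unadjusted p below 0.05 by limma, 0 of the lymphocyte or keratinocyte markers were higher too. After quantile normalisation none of either list was called, while 2 keratinocyte markers were higher and 1 lower and 1 lymphocyte marker was lower at an unadjusted p below 0.05. Keratinocyte markers had a mean log2 expression of 4.44 to 4.79 in controls and 3.91 to 4.21 in anti-VEGF tumours. The part of any of these cells in the values of the 6 genes was not tested.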

How the data were processed

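Arrays of 8 tumours were used, 4 control and 4 anti-VEGF. Per the labels and the study's methods, the authors made the deposited log2 values by robust multi-array averaging, and the submitters' processing notes name RMA and Transcriptome Analysis Console. The genome build of the array was not given in the sources used here. Of 13266 probe sets, 11743 had 1 symbol in the platform annotation, 800 several and 723 none. Those with 1 symbol were kept, by the highest-mean probe set for 74 genes with more than 1, which gave 11667 genes.

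limma 3.58.1 in R 4.3.3 (lmFit and eBayes, two-sided) compared the treatments with no covariate, and p-values were adjusted over the 11667 genes by Benjamini-Hochberg and called below 0.05. The 6 genes and all 21 gene lists were chosen with earlier results of these data known. No list was tested as a set. Counts in a list are to be read beside the percentages of all genes called and, where given, the counts of the level bin. SDs are over the 4 tumours of a group, whose small number sets the precision. The alternatives were renewed quantile normalisation, cyclic loess, centring on array medians, a fit without the lowest tertile of genes, the mean of a gene's probe sets, a replicate block, omission of each array, array weights, and eBayes with trend and robust. Tumours of the same number were not taken as pairs, since the labels name no pairing.

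In simulated data of 11667 genes made for this comparison, limma called 3 of 50 genes that had been shifted by 0.5 (log2), 27 of 50 shifted by 1, 41 of 50 by 1.5 and 47 of 50 by 2, beside 7 of 11467 that had not. Noise was drawn independently, and unshifted genes had the same mean and SD in both groups. The simulated arrays thus lacked the difference in spread between the treatments, and the 7 calls do not measure how many real calls go with that spread. The text names part of the genes that a rule gave: the 6 genes, the genes of smallest p in a list, 4 at most, markers of other cells, tested neighbours, stefin A, resistin and S100 relatives, and the 10 genes with the profile most like the mean of the 6. Prss57, Ngp, Ltf, Cxcr2, Cd300ld, Clec4d, Il1r2, Arg1, Ctsc, Ctsb, Cd14, Myd88, Csf1, Cxcl3, Csf2 and Csf3 lie outside that rule and were chosen after their values were seen. Promoter windows of RefSeq on GRCm38.p6 were searched for motifs. Python 3.11.15 and matplotlib 3.10.9 made the figures.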

Additional observations from a re-analysis of the deposited data

Results flagged for a closer look

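Of 170 groups of 4 tumours examined, 1 group a gene and treatment, 11 had a tumour that stood away from the other 3 by more, as a share of the group's range, than Dixon's critical value allows. Chance marks about 1 in 20 groups. Among the 6 genes this held for Retnlg alone, in anti-VEGF tumour 4, at a log2 expression of 7.33 beside 6.55 in the next tumour. Among other neutrophil genes, Camp in anti-VEGF tumour 2 was at 4.77 and Stfa1 in the same tumour at 2.89, both below the other 3.

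Anti-VEGF tumour 1 stood away for 4 genes. Ly96 was at 4.68 there, below the next at 6.75 and within the range of the controls, Ctsc was at 7.99, and S100a6 at 10.75 and Gfi1 at 5.47 were above the others. Control tumour 3, whose array had the narrowest spread, was the lowest of its group for 4 genes, S100a1 at 5.51, Ly6c2 at 5.53, Lta4h at 5.30 and Fosl2 at 5.53.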

How the results depend on the processing

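The median difference of the 6 genes, 1.42 on the log2 scale, was 1.12 to 1.84 under the alternatives other than leaving out an array, and 1.25 to 1.60 with 1 array left out. Over all genes, 872 were called higher and 519 lower after quantile normalisation, 1339 and 1110 after cyclic loess, 3735 and 2787 after median centring (each of these moves the median of all genes by 0.41 to 0.42 on the log2 scale), and 1870 lower without the lowest tertile, where fewer genes are tested. With 1 array left out, higher calls over all genes were 1697 to 2419 and lower calls 4273 to 5799. Of the 66 other neutrophil genes, 6 were higher and 2 lower after quantile normalisation, 9 and 5 after cyclic loess, and 34 and 2 after median centring. With 1 array left out, 14 to 23 were higher and 8 to 17 lower. The labels do not name the replicate numbers as pairs. Correlations of same-numbered deviations were 0.19, 0.13, -0.04 and 0.16, and 2 of 4 controls matched their own number best. So few values can neither show nor exclude a pairing. With the replicate block, 21 of these genes were higher and 14 lower, and 2159 and 5422 of all genes.

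Of 79 other named genes, 68 were called. After quantile normalisation 52 lost the call and 4 gained one, and after cyclic loess 44 and 4. The sign turned after quantile normalisation for Ctsg (0.17), Fcnb (0.13), Csta3 (0.67), Stfa2 (0.65), S100a16 (-0.15), Ly6f (0.041), Myd88 (-0.20), Cxcl3 (-0.31), Mmp27 (0.38), Mmp1b (0.060) and Il17f (0.23), and after cyclic loess for the same genes at 0.16, 0.17, 0.67, 0.64, -0.18, 0.12, -0.20, -0.39, 0.36, 0.15 and 0.21. The cause was not tested. Leaving out an array ended the call of 16 genes at least once, 13 of them without anti-VEGF tumour 4, 11 without tumour 3 and 11 without tumour 2, among them Prss57, Fcnb, Clec4d, S100a1, S100a5 and Il1r2, and for 1 to 5 genes without each other array. Signal over background limits the differences of the 6 genes, above all of Ly6g, which was below the 95th percentile of olfactory and vomeronasal receptor genes in all 4 controls.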

Other observations

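Lists that bear on oxygen and vessels were counted in the same fit. Of 9 tested targets of hypoxia-inducible factors, 8 were called higher in anti-VEGF tumours and 0 lower, beside 19.1% and 46.6% of all genes. Their median difference was 1.19 on the log2 scale. In the level bin that holds the median of the list, 736 of all 1167 genes were called higher, and the median difference was 0.89. After quantile normalisation again 4 targets were called higher, beside 7.47% of all genes. Of 10 endothelial markers 0 were higher and 1 lower, at a median of -0.15. Of 10 fibroblast and skin stroma markers 1 was higher and 3 lower, and of 6 platelet and erythroid markers 1 was higher and 1 lower.

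Olfactory and vomeronasal receptor genes, which tumours are not known to use, had a median log2 expression of 3.29 to 4.10 over 1268 genes in controls and of 2.21 to 2.48 in anti-VEGF tumours.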
